A study of Mus musculus with 28 samples.

Results

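Endothelial cells line the vessels of the heart, and 43 genes that mark these cells or their activation were followed through a series on chronic kidney disease (CKD) and colonization with a gut bacterium. The genes were chosen by name: they are the rows of the deposited count table whose gene name stands in a list of 43 symbols, 43 of 45513 rows in all. They were grouped by role into 12 surface and junction genes common to endothelium, 6 endothelial transcription factors, 6 Notch and arterial genes, 5 capillary genes, 2 lymphatic genes, 5 genes of vascular tone and the response to flow, and 7 genes of activation, adhesion and haemostasis. All 43 were among the 24273 genes with enough counts to be tested.

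RNA was sequenced from ventricular myocardium of 28 adult male C57BL/6 mice, 1 library for each mouse, after perfusion of the animals with saline under ketamine and xylazine and freezing of the heart. CKD was produced at 6 weeks of age by 5/6 nephrectomy, the stepwise surgical removal of most kidney tissue, and control mice had sham surgery. Every mouse, controls included, ate food with 1% hydroxyproline, a precursor of oxalate, and 0.5% calcium. On day 7 each received by gavage either Oxalobacter formigenes (Oxf), a bacterium that degrades oxalate, or the culture medium without it (vehicle). Vehicle was given to 10 sham mice (sham-vehicle) and 6 CKD mice (CKD-vehicle), and Oxf to 5 sham mice (sham-Oxf) and 7 CKD mice (CKD-Oxf). The series planned 10 mice in each, and the others were not analysed here. The labels name each library as a separate mouse, all of 1 strain and 1 sex, and replicates are numbered within each group in the order of the records.

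Endothelial cells are held together by VE-cadherin (Cdh5) and PECAM-1 (Pecam1), and they sense vascular endothelial growth factor through the receptors Kdr, Flt1 and, in lymphatic vessels, Flt4. Transcription factors of the ETS family (Erg, Fli1, Ets1) and the SoxF family (Sox7, Sox17, Sox18) maintain their identity, and Notch signalling from the ligand Dll4 to Notch1 and Notch4 sets arterial fate. Activated endothelium displays selectins and adhesion molecules that capture leukocytes, while nitric oxide made by Nos3 and the peptide endothelin made from Edn1 act on vascular tone. The heart muscle is dense in capillaries, so endothelial messages are readily seen in whole ventricle.

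The promoters of 4 members that passed the threshold for Oxf in CKD only in alternative fits, described further on, are shown, because ETS factors among the members bind sequences with a GGAA core. The sequences are those of RefSeq on GRCm38.p6, run 5′ to 3′ on the gene's strand from 250 bases before to 50 after the start of transcription, and capitals mark the letters AGGAAG or CGGAAG on either strand. They lie at chr2:119325534-119325833 for Dll4, chr17:34564045-34564344 for Notch4, chr2:26580833-26581132 for Egfl7 (the first of its 3 promoters in the table) and chr3:137340828-137341127 for Emcn, all on the plus strand.
Dll4: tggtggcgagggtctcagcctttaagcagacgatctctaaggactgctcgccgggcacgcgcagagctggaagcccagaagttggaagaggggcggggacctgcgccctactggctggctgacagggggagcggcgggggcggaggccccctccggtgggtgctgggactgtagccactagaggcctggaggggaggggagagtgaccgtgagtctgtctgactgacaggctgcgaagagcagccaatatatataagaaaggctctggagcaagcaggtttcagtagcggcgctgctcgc
Notch4: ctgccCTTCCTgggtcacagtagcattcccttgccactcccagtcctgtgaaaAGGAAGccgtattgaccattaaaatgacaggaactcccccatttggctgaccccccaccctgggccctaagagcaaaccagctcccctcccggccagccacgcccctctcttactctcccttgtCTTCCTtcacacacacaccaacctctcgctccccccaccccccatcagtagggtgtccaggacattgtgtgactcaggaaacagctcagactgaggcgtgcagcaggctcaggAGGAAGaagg
Egfl7: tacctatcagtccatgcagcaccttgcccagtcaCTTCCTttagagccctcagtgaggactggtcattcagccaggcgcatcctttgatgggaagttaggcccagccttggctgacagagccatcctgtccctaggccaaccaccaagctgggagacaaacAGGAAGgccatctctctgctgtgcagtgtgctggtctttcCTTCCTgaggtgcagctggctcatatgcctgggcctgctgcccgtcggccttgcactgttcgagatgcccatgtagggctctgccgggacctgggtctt
Emcn: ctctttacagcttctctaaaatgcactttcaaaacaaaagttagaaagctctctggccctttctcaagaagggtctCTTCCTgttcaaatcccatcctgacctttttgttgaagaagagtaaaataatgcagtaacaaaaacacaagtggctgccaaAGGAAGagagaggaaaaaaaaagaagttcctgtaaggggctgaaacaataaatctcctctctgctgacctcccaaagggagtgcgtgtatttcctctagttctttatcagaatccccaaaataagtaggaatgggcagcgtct
The window held 0 matches in Dll4, 4 in Notch4, 3 in Egfl7 and 2 in Emcn. The Dll4 window does hold the GGAA core after a T (tggaag), which the letters searched do not cover. Of the 43 members, 28 had an entry in the promoter table, with 33 promoters between them, and 16 of these 33 (48.5%) held such a match, against 46.5% of all 32851 promoters of the same length. The letters ACAATG, which the SOX family can bind, stood on either strand in 6.1% of the members' promoters and in 12.6% of all, and the letters CACGTG in 3.0% and 7.2%. The share of ETS letters in the members' promoters was therefore close to that of all promoters. Pecam1, Cdh5, Esam, Icam2, Fli1, Ets1, Sox7, Sox17, Sox18, Hey1, Aplnr, Nos3, Vcam1, Vwf and Thbd had no entry.

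Levels are given in CPM, the counts of a gene relative to the library total after normalization for library composition, and genes are compared with each other only per kilobase (kb) of annotated exon. Over the 28 libraries the water channel gene Aqp1 had the highest mean level, 59.3 CPM per kb, followed by the flow-induced factor Klf2 (51.7), Cdh5 (51.3), the TGF-beta co-receptor Eng (50.8) and the secreted matrix protein gene Egfl7 (46.9). Pecam1 stood at 26.5 CPM per kb and Kdr at 24.3. The lowest mean levels were those of the selectin genes Sele (0.323 CPM per kb) and Selp (0.375), the protein C receptor gene Procr (0.536), the apelin gene Apln (1.03) and Edn1 (1.58). Apln and Procr had 0 counts in 1 library.

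**Figure D1:**
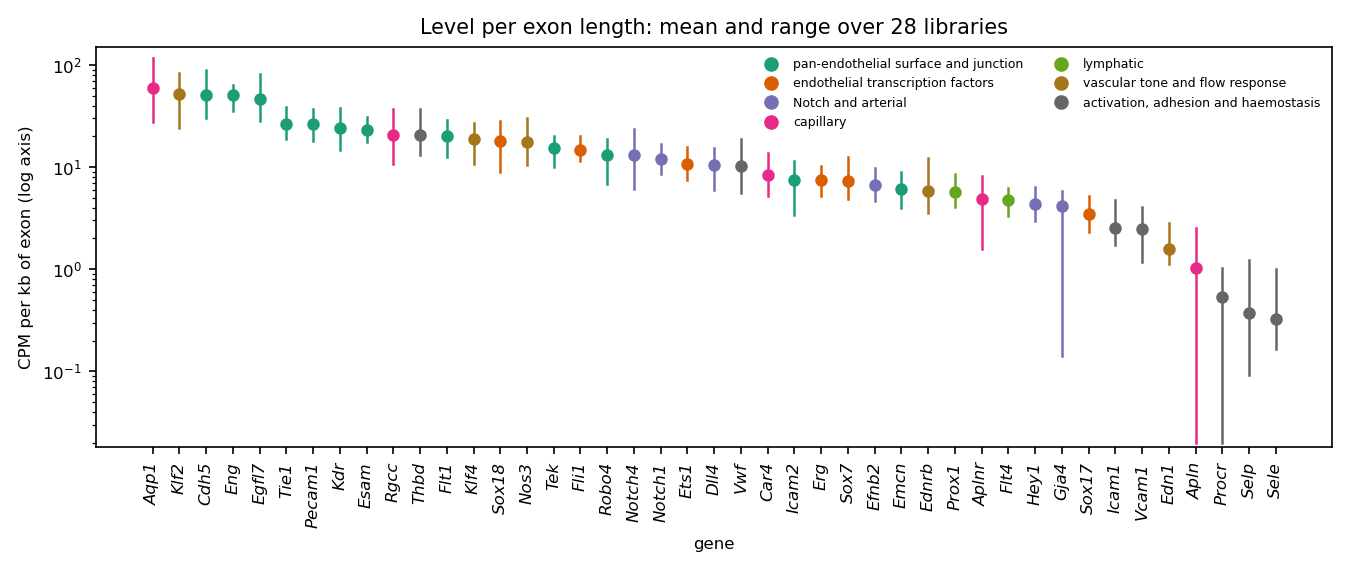
Mean level of each of the 43 genes in CPM per kb of exon (points, log axis) with the lowest and highest of the 28 libraries (lines), coloured by role. Identity genes such as Cdh5 (51.3) and Egfl7 (46.9) lie far above the selectin genes Selp (0.375) and Sele (0.323). The lines of Apln and Procr are cut at a floor near the bottom of the axis because 1 library had 0.

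Members differed in how evenly they were expressed among mice of the same group. The within-group SD on the log2 scale was lowest for Fli1 (0.19), Eng (0.19) and Pecam1 (0.21) and highest for Apln (1.27), Procr (0.95), Selp (0.90) and the connexin gene Gja4 (0.89). For Apln, Procr and Gja4 the high value came from sham-Oxf alone (2.74, 2.05 and 2.12), where replicate 1 had 0, 0 and 0.237 CPM. In the other 3 groups the SD was 0.46 to 0.86 for Apln, 0.36 to 0.53 for Procr and 0.13 to 0.38 for Gja4, whereas that of Selp was 0.60 or more in all 4 groups. Sele had 19 to 69 counts in a library and Selp 15 to 177, so their values carry more counting error than those of Cdh5, which had at least 4722 counts in every library. In bulk tissue, fewer endothelial cells and less RNA in each endothelial cell cannot be told apart.

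Library totals ran from 19798965 to 65378162 counts. Sham-Oxf replicate 1 was the shallowest and had counts for 15879 genes. Sham-vehicle replicate 2, the next in depth at 22299166 counts, had counts for 31238 genes. Why sham-Oxf replicate 1 listed so few genes was not tested. The range over the remaining 27 was 27128, in CKD-Oxf replicate 4, to 33995. The 7SL RNA, an abundant noncoding RNA, took 1.83% to 20.98% of the counts in a library. Cardiomyocyte markers had 9 of 9 genes detected in every library and summed to a median of 28240 CPM in sham-vehicle and 37580 in CKD-vehicle (29830 and 33780 with Oxf). Sums over marker lists, here and below, are relative to the library total alone, without the normalization for composition. They are therefore not on the same scale as the CPM of members. A clock score was the mean log2 level of Dbp, Tef, Hlf, Per1, Per2, Per3, Nr1d1, Nr1d2, Ciart and Bhlhe41 minus that of Arntl, Npas2, Clock and Nfil3. It was centred on sham-vehicle (SD 1.16) and averaged -1.57 (0.963) in CKD-vehicle, while the Oxf groups averaged 1.83 (0.619, sham) and 1.196 (0.639, CKD). The clock score thus moved with the groups. Its part in the endothelial results was not tested beyond a fit that takes it as a covariate. It ran from -2.57 to -0.34 in CKD-vehicle and from -0.16 to 1.88 in CKD-Oxf, without overlap. For Oxf in CKD that fit therefore cannot tell the clock score and the gavage apart, and its values there are extrapolations. The members together took 0.315 ± 0.0434% of all counts in sham-vehicle (SD, n = 10), 0.262 ± 0.0537% in CKD-vehicle (n = 6). With Oxf they took 0.345 ± 0.0342% in sham mice (n = 5) and 0.321 ± 0.0404% in CKD (n = 7), and the ranges of all 4 groups overlapped.

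The first comparison asks how CKD altered the endothelial genes of the heart without the bacterium. Most members had lower mean levels in CKD-vehicle than in sham-vehicle, and none passed the test. The log2 fold change was below 0 for 35 of 43 members (55.6% of all genes) and above 0 for 8 (44.4% of all genes), with a median of -0.17, against -0.03 over all genes. The arterial ligand gene Dll4 had the lowest value among those with an unadjusted p under 0.05, -0.50 ± 0.16 (SE), and the lymphatic factor gene Prox1 the highest, 0.37 ± 0.12. In edgeR's quasi-likelihood test, 0 of 43 members reached an adjusted p of 0.05 (the smallest was 0.955), as did 2 of all genes (0.00824%). At an unadjusted p under 0.05 stood 6 members, 1 higher and 5 lower, where the shares over all genes were 2.09% higher and 2.37% lower. DESeq2 and limma also called 0 members. No member had groups that did not overlap, and 0.0330% of all genes were fully higher and 0.0948% fully lower.

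All 12 surface and junction genes and all 6 Notch and arterial genes had values below 0 in this comparison, with medians of -0.14 and -0.23, and both counts held under DESeq2 size factors and upper quartile scaling. The surface and junction count was 11 of 12 under limma, and the Notch and arterial count was 4 of 6 with the clock score covariate and 5 of 6 with the 7SL covariate. Of the 6 transcription factor genes 5 were below 0, and 6 under either other scaling. The capillary genes had 4 of 5 below 0 (5 under upper quartile scaling or with the 7SL covariate, and 3 with the clock score covariate). The activation genes divided into 4 above 0 and 3 below, with a median of 0.03, but into 2 above and 5 below (median -0.17) with the clock score covariate and 1 above and 6 below (-0.03) with the 7SL covariate. The cardiomyocyte markers lay on the other side, with 9 of 9 above 0, 3 of them at an unadjusted p under 0.05 and 0 past the threshold, and a median of 0.48. Atrial markers lay there too, with 5 of 5 above 0, 0 past the threshold and a median of 0.45. Summed, the atrial markers ran from 144.7 to 3907 CPM in sham-vehicle and from 816.7 to 2716 in CKD-vehicle. Hepatocyte, adipocyte and mesothelial markers lay below 0 as the endothelial genes did, with 0 of 5, 0 of 5 and 0 of 4 above 0 and medians of -2.47, -1.59 and -0.35. All 5 hepatocyte markers and 1 mesothelial marker had an unadjusted p under 0.05, and 0 passed the threshold. Summed, the hepatocyte markers ran from 1.31 to 29.6 CPM in sham-vehicle and from 0.857 to 1.66 CPM in CKD-vehicle. The adipocyte markers ran from 1.76 to 232.8 and from 0.909 to 134 CPM, and the mesothelial markers from 20.1 to 124 and from 30.2 to 82.5 CPM. The part of these marker lists in the lower endothelial values was not tested.

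The second comparison asks what Oxf did in hearts of mice with CKD. Here most members had higher mean levels in CKD-Oxf than in CKD-vehicle, and among those with an unadjusted p under 0.05 the highest values were those of Egfl7, Notch4, Sox7, Dll4, Nos3 and Sox17, while the sialomucin gene Emcn was lower. The log2 fold change was above 0 for 31 of 43 members (53.2% of all genes) and below 0 for 12 (46.8% of all genes), with a median of 0.18 against 0.03 over all genes. No member passed: in edgeR's test the smallest adjusted p was 0.214, for Sox17, and 8 of all genes (0.0330%) were called. At an unadjusted p under 0.05 stood 13 members with higher values and 1 with a lower value, where the shares over all genes were 6.89% and 6.20%. DESeq2 called 0 members as well, and no member had groups that did not overlap (0.218% of all genes were fully higher and 0.260% fully lower). Limma with sample weights called 6 (Sox17, Emcn, Notch4, Nos3, Egfl7 and Dll4) among 3639 genes (15.0%). Without CKD-Oxf replicate 4, edgeR called 3 members, Egfl7 and Dll4 as higher and Emcn as lower, among 927 genes (3.83%). Without that library and sham-Oxf replicate 1 it called 5, with Sox17 and Nos3 added, among 2189 genes (8.86%). With the clock score as a covariate 0 members and 0 of all genes were called, while the members' median was 0.28 with 35 of 43 above 0. The clock scores of CKD-vehicle and CKD-Oxf did not overlap, so that fit cannot tell the clock score and the gavage apart. Both comparisons use the same CKD-vehicle libraries, so low values there enter each of them with opposite sign.

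**Figure D2:**
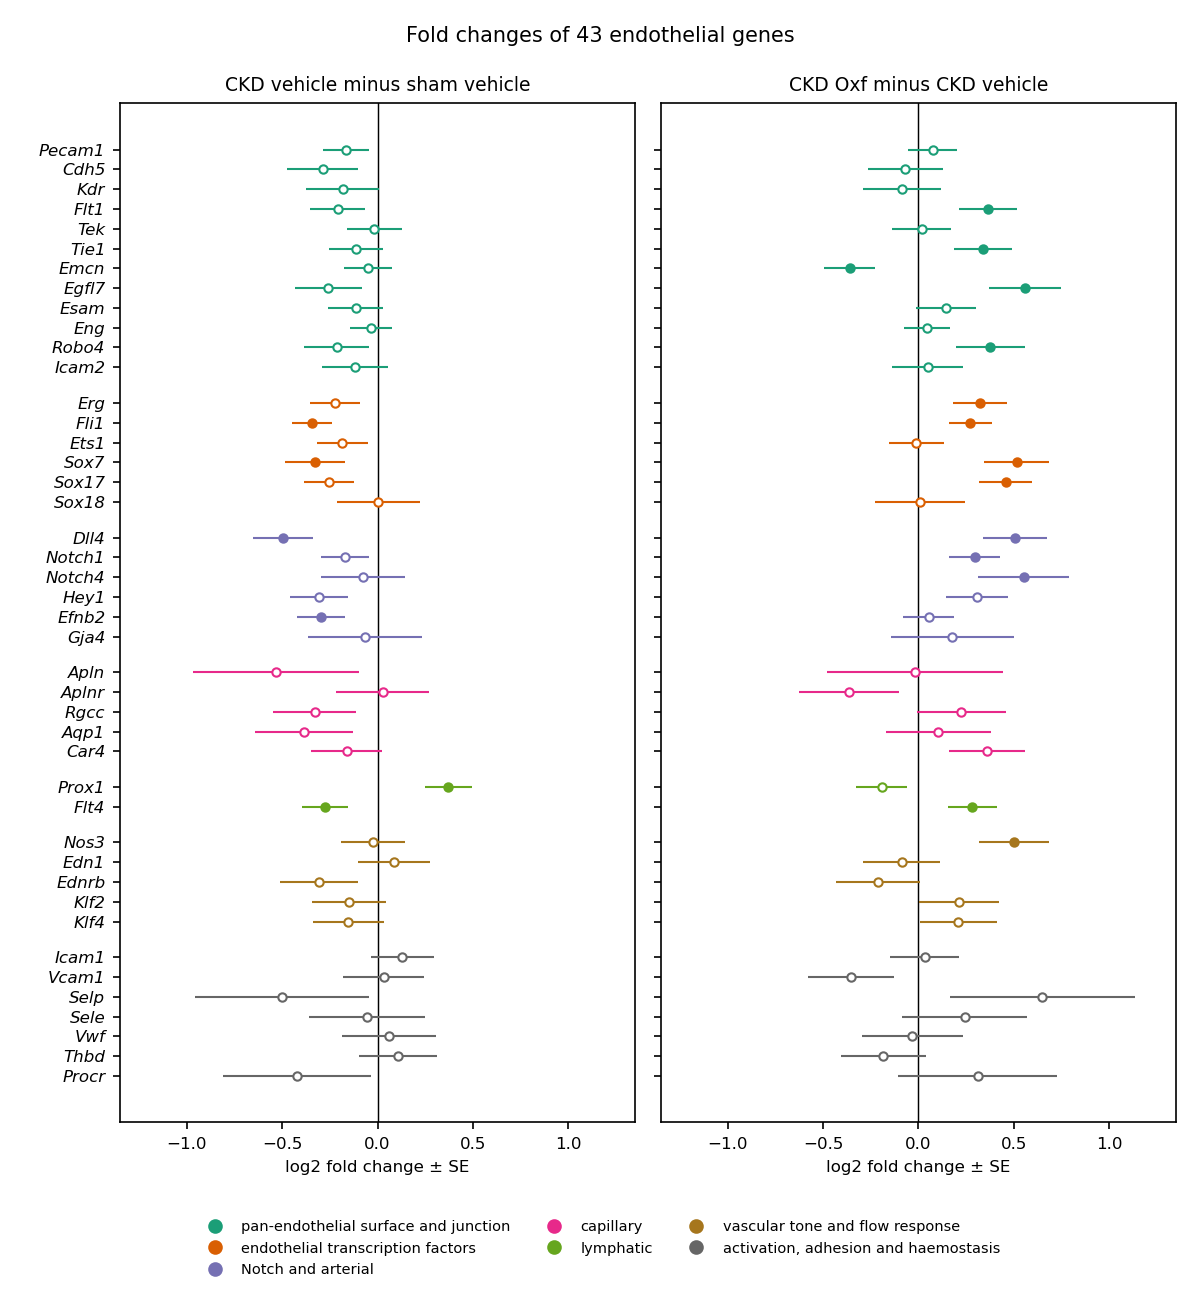
Log2 fold change ± SE (edgeR) of each of the 43 genes, CKD-vehicle minus sham-vehicle on the left and CKD-Oxf minus CKD-vehicle on the right, coloured by role. Filled points have an unadjusted p under 0.05, 6 on the left and 14 on the right, and no point passed the adjusted threshold.

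In the second comparison the Notch and arterial genes had 6 of 6 above 0 with a median of 0.30, and 5 of 6 with the clock score covariate. The transcription factor genes had 5 of 6 above 0 with a median of 0.30. That count was 4 under limma, and 6 under upper quartile scaling or with either covariate. The surface and junction genes had 9 of 12 above 0 and a median of 0.06. Their count was 8 under limma, 11 with the 7SL covariate and 7 without sham-Oxf replicate 1 and CKD-Oxf replicate 4. With the clock score covariate it was 9, with a median of 0.27. The capillary genes had 3 of 5 above 0 (median 0.10), and 4 with either covariate. Only 2 of 5 were above 0 under limma (median -0.13) and without the same 2 libraries (median -0.07). Activation genes again divided into 4 above and 3 below 0, with a median of 0.03. The covariates changed that division to 6 above and 1 below, with medians of 0.38 (clock score) and 0.11 (7SL share), and limma to 3 above and 4 below (-0.08). Without sham-Oxf replicate 1 and CKD-Oxf replicate 4 it was also 3 above and 4 below (-0.16). Of the markers of other cells in this comparison, fibroblast markers had 0 of 7 above 0 (median -0.48), cardiomyocyte markers 1 of 9 (median -0.59), and markers of endocardium, the endothelium of the inner heart wall, 1 of 4 (median -0.50). Atrial markers had 0 of 5 above 0 (median -0.77), and their sums ran from 100.3 to 2254 CPM in CKD-Oxf and from 63.0 to 1890 in sham-Oxf. Above 0, as most members were, stood 5 of 5 hepatocyte markers (median 3.12, all at an unadjusted p under 0.05), 5 of 5 red blood cell markers (0.80), 4 of 5 adipocyte markers (1.15) and 4 of 4 mesothelial markers (0.39). In CKD-Oxf the hepatocyte markers summed to 0.661 to 74.8 CPM, the red blood cell markers to 13.2 to 146 (7.55 to 38.1 in CKD-vehicle), the adipocyte markers to 1.67 to 244.7 and the mesothelial markers to 18.5 to 136 CPM, each overlapping CKD-vehicle. None of these markers passed the threshold, and their part in the endothelial values was not tested.

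Among the Notch and arterial genes, Dll4, the ligand shown above, spanned 30.0 to 55.6 CPM with a median of 41.6 in sham-vehicle and 22.9 to 38.1 with a median of 28.3 in CKD-vehicle. It stood at 47.8, 41.6, 42.4, 58.8 and 47.5 CPM in sham-Oxf and ran from 26.7 to 57.0 with a median of 37.5 in CKD-Oxf. All 6 CKD-vehicle libraries lay below the sham-vehicle median, yet the ranges overlapped. Its log2 fold change was -0.50 ± 0.16 for CKD under vehicle (edgeR adjusted p = 0.955) and 0.51 ± 0.17 for Oxf in CKD (adjusted p = 0.235). CKD-Oxf replicates 1, 3 and 5 were high at 50.9, 55.4 and 57.0 CPM, and the other 4 libraries were within the CKD-vehicle range at 26.7 to 37.5.

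Notch4, a Notch receptor largely confined to endothelium, had 59.2 to 120.3 CPM with a median of 95.9 in sham-vehicle and 48.9 to 129 with a median of 78.4 in CKD-vehicle. Sham-Oxf gave 185, 105, 120.0, 108 and 119 CPM, and CKD-Oxf 65.1 to 190.1 with a median of 128. The vehicle groups overlapped almost fully, and the highest sham-Oxf value was that of replicate 1, the library with the fewest genes. For Oxf the log2 fold change was 0.55 ± 0.24 in CKD (edgeR adjusted p = 0.332) and 0.49 ± 0.23 in sham mice (adjusted p = 0.367). For CKD under vehicle it was -0.08 ± 0.22.

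Efnb2, the ephrin ligand that marks arteries, had 32.4 to 58.4 CPM with a median of 48.7 in sham-vehicle and 32.1 to 44.2 with a median of 39.9 in CKD-vehicle. In sham-Oxf it stood at 49.5, 46.3, 52.3, 66.4 and 53.4 CPM, and in CKD-Oxf at 32.1 to 51.4 with a median of 41.1. CKD libraries were low in either gavage arm, and every CKD-Oxf library was below the sham-Oxf median, with overlapping ranges. Its log2 fold change was -0.30 ± 0.13 for CKD under vehicle (edgeR adjusted p = 0.955), -0.38 ± 0.14 for CKD under Oxf (adjusted p = 0.409) and -0.34 ± 0.09 averaged over gavage (adjusted p = 0.233). DESeq2 put the averaged value of Efnb2 past the threshold, at -0.36 with an adjusted p of 0.0367. The other members of the group were Notch1, its target Hey1 and Gja4, which had mean levels of 171, 14.1 and 6.96 CPM over all libraries.

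**Figure D3:**
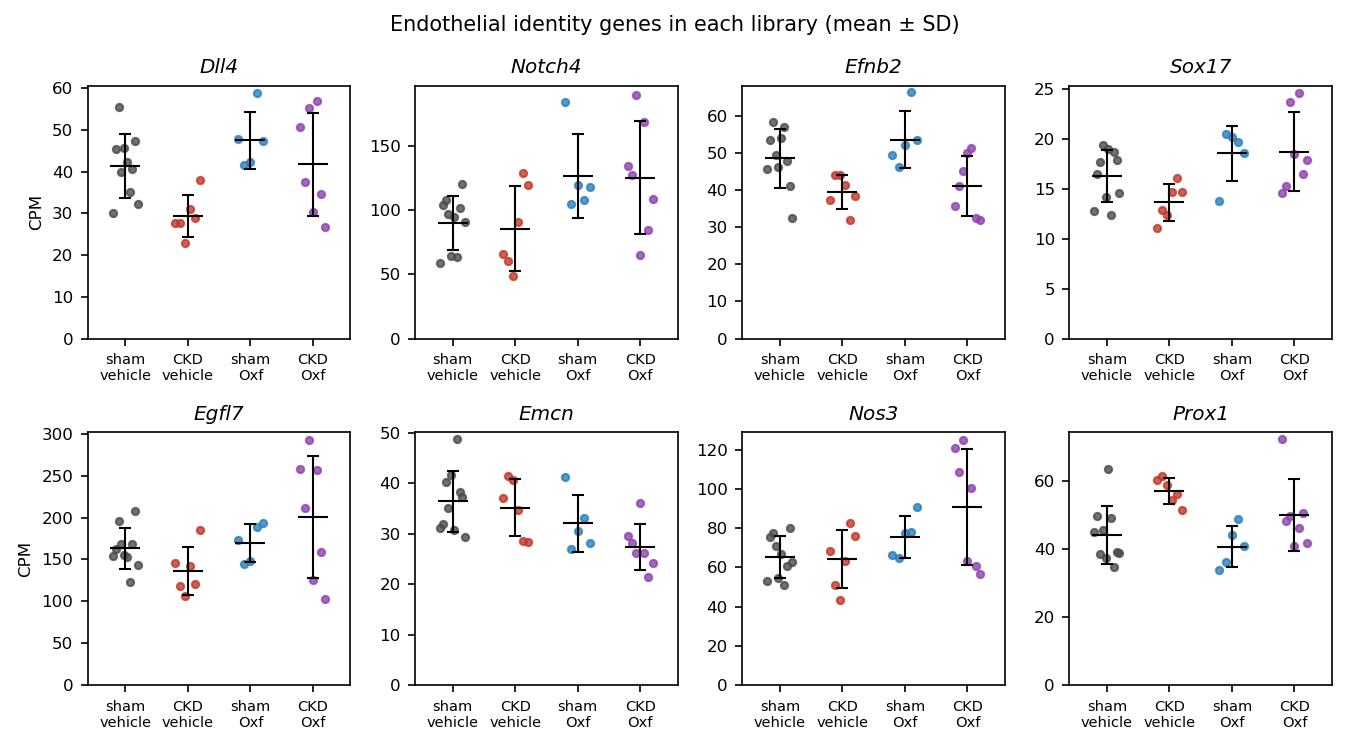
CPM in each library (points) for 8 identity genes, with the mean (long bar) and SD (error bar) of each of the 4 groups and every axis starting at 0. Dll4 is low in CKD-vehicle (22.9 to 38.1 CPM), Egfl7 and Nos3 spread widely in CKD-Oxf, and Prox1 is high in CKD-vehicle (51.5 to 61.7 CPM).

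Of the transcription factors, Sox17, a SoxF factor of arterial endothelium, had 12.4 to 19.4 CPM with a median of 17.1 in sham-vehicle and 11.04 to 16.1 with a median of 13.8 in CKD-vehicle. It had 13.8, 20.5, 20.2, 19.7 and 18.6 CPM in sham-Oxf and 14.6 to 24.7 with a median of 17.9 in CKD-Oxf. All 7 CKD-Oxf libraries lay above the CKD-vehicle median, and the groups overlapped. Sox17 had a log2 fold change of -0.26 ± 0.13 for CKD under vehicle and 0.46 ± 0.14 for Oxf in CKD (edgeR adjusted p = 0.955 and 0.214). Averaged over surgery, the Oxf value was 0.32 ± 0.10 with an adjusted p of 0.0611, the smallest of any member in any comparison.

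Fli1, an ETS factor of endothelium and blood cells, had 40.2 to 69.9 CPM with a median of 56.6 in sham-vehicle and 39.7 to 46.3 with a median of 43.7 in CKD-vehicle. In sham-Oxf it was 52.7, 47.9, 47.6, 56.0 and 45.5 CPM, and in CKD-Oxf 45.1 to 63.0 with a median of 53.5. CKD-vehicle was the tightest and lowest group, and only 2 sham-vehicle libraries, at 40.2 and 42.9 CPM, fell inside its range. The log2 fold change was -0.34 ± 0.11 for CKD under vehicle, 0.27 ± 0.11 for Oxf in CKD (edgeR adjusted p = 0.955 and 0.319), and 0.41 ± 0.16 for the interaction of surgery and gavage (adjusted p = 1). Fli1 overlaps 6 other annotated genes, 5 on the same strand and 1 on the opposite strand. The strand setting of the counting is not given in the sources used here and would not resolve the overlaps on the same strand. The counts of Fli1 are therefore uncertain where these genes overlap it. The unknown strand setting also limits, among others, the counts of Dll4, Notch4, Sox17, Egfl7, Nos3 and Prox1, which overlap genes on the opposite strand.

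Erg, the ETS factor most restricted to endothelium, had 18.02 to 34.2 CPM with a median of 25.9 in sham-vehicle and 20.7 to 24.7 with a median of 21.4 in CKD-vehicle. It had 26.4, 23.5, 25.5, 32.3 and 27.4 CPM in sham-Oxf and 19.9 to 35.5 with a median of 25.7 in CKD-Oxf. All 6 CKD-vehicle libraries lay below the sham-vehicle median and inside its range. The log2 fold changes of Erg were -0.22 ± 0.13 for CKD under vehicle and 0.32 ± 0.14 for Oxf in CKD (edgeR adjusted p = 0.955 and 0.333). Sox7, of the same family as Sox17, had medians of 23.0 and 19.4 CPM in sham-vehicle and CKD-vehicle and 22.7 and 24.0 with Oxf, with -0.33 ± 0.16 for CKD under vehicle, 0.51 ± 0.17 for Oxf in CKD and 0.56 ± 0.24 for the interaction. Ets1 and Sox18 averaged 91.4 and 29.4 CPM over all libraries.

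Among the surface and junction genes, Egfl7 showed the widest division among the mice of a single group. It had 123 to 208 CPM with a median of 159 in sham-vehicle and 106 to 186 with a median of 131 in CKD-vehicle. Sham-Oxf stood at 173, 144, 148, 188 and 193 CPM, and CKD-Oxf at 102 to 292 with a median of 212. In CKD-Oxf, replicates 1, 3 and 5 had 258, 292 and 257 CPM, above every vehicle library, while replicates 4 and 7 had 126 and 102, below the medians of both vehicle groups. Egfl7 had a log2 fold change of -0.26 ± 0.18 for CKD under vehicle and 0.56 ± 0.19 for Oxf in CKD (edgeR adjusted p = 0.955 and 0.242), the latter 0.64 with an adjusted p of 0.0441 without replicate 4.

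Pecam1 had 136 to 221 CPM with a median of 169.8 in sham-vehicle and 149 to 166 with a median of 155 in CKD-vehicle. It had 166, 129.5, 155, 167 and 169 CPM in sham-Oxf and 113 to 228 with a median of 159 in CKD-Oxf. CKD-vehicle lay wholly inside the sham-vehicle range, and CKD-Oxf spread beyond both. The log2 fold changes of Pecam1 were -0.17 ± 0.12 for CKD under vehicle and 0.07 ± 0.13 for Oxf in CKD (edgeR adjusted p = 0.955 and 0.838).

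Cdh5 had 157 to 374 CPM with a median of 216 in sham-vehicle and 144 to 258 with a median of 209 in CKD-vehicle. It had 224, 148, 193, 257 and 172 CPM in sham-Oxf and 126 to 249 with a median of 223 in CKD-Oxf. The 4 groups overlapped over most of their ranges. Kdr had 152 to 341 CPM with a median of 249 in sham-vehicle, 147 to 245 with a median of 229 in CKD-vehicle, 132 to 299.5 with a median of 202 in CKD-Oxf, and 261, 134, 182, 248 and 155 in sham-Oxf. Log2 fold changes for Oxf in CKD were -0.07 ± 0.20 for Cdh5 and -0.09 ± 0.20 for Kdr, and for CKD under vehicle -0.29 ± 0.18 and -0.18 ± 0.19. With the clock score as a covariate the Oxf values turned to 0.30 for Cdh5 and 0.44 for Kdr. The clock scores of the CKD groups did not overlap, so these values are extrapolations. With the 7SL covariate the Oxf values were 0.094 and 0.052.

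Emcn, a sialomucin of capillary and venous endothelium, was the member with an unadjusted p under 0.05 and a lower level under Oxf in CKD. It had 29.3 to 48.7 CPM with a median of 36.2 in sham-vehicle and 28.4 to 41.5 with a median of 35.9 in CKD-vehicle. Sham-Oxf stood at 41.3, 27.0, 30.6, 33.1 and 28.2 CPM, and CKD-Oxf at 21.4 to 36.1 with a median of 26.2. Of the 7 CKD-Oxf libraries 6 lay below the CKD-vehicle median, and the exception was replicate 4. The log2 fold change of Emcn was -0.36 ± 0.13 for Oxf in CKD (edgeR adjusted p = 0.283) and -0.44 without replicate 4 (adjusted p = 0.0438). Averaged over surgery it was -0.27 ± 0.10 (adjusted p = 0.0909).

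The other members of this role, the angiopoietin receptor Tek and its relative Tie1, Flt1, Esam, Eng, the guidance receptor Robo4 and Icam2, had mean levels between 14.2 CPM (Icam2) and 274 CPM (Flt1). Flt1 had medians of 269.9 and 238 CPM in sham-vehicle and CKD-vehicle and 298 and 289 with Oxf, with a log2 fold change of 0.36 ± 0.15 for Oxf in CKD (edgeR adjusted p = 0.323). Icam2, an adhesion molecule present on resting endothelium, was 6.45, 11.06, 11.04, 14.9 and 12.7 CPM in sham-Oxf, all 5 below the sham-vehicle median of 15.4, with -0.45 ± 0.19 (adjusted p = 0.313).

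Among the capillary genes, Aplnr, the apelin receptor, had 9.35 to 26.1 CPM with a median of 17.8 in sham-vehicle and 9.69 to 27.6 with a median of 17.4 in CKD-vehicle. It had 30.0, 14.1, 15.8, 20.7 and 13.8 CPM in sham-Oxf and 5.86 to 21.3 with a median of 15.4 in CKD-Oxf. The groups overlapped throughout, and the log2 fold change for Oxf in CKD was -0.36 ± 0.26 (edgeR adjusted p = 0.556), which the clock score covariate turned to 0.39.

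Rgcc, a cell cycle regulator abundant in heart capillaries, ran from 10.7 to 33.7 CPM (median 20.2) in sham-vehicle, 9.76 to 20.4 (16.7) in CKD-vehicle and 11.7 to 27.1 (19.0) in CKD-Oxf, and was 15.8, 15.0, 17.8, 21.8 and 17.99 in sham-Oxf. Its log2 fold changes were -0.33 ± 0.22 for CKD under vehicle and 0.23 ± 0.23 for Oxf in CKD, and the clock score covariate turned them to 0.027 and -0.36. Car4, a carbonic anhydrase on the capillary surface, ran from 10.2 to 23.7 CPM (median 15.4) in sham-vehicle, 10.6 to 18.2 (15.2) in CKD-vehicle and 11.3 to 27.1 (18.9) in CKD-Oxf, and was 18.5, 11.4, 13.3, 19.9 and 16.2 in sham-Oxf. Its log2 fold changes were -0.16 ± 0.19 (0.021 with the clock score covariate) and 0.36 ± 0.20. Neither gene separated any groups.

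Apln was 0 CPM in sham-Oxf replicate 1 and at most 8.01 CPM elsewhere, and Aqp1 ran from 72.1 to 309.5 CPM over the libraries. The zero of Apln belonged to the library that listed the fewest genes, in which Gja4 also had 0.237 CPM and Procr 0. With the log2 7SL share as a covariate, edgeR called 1 member in CKD against sham averaged over gavage, Aqp1 at -0.65 with an adjusted p of 0.0232, among 45 genes (0.185%).

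**Figure D4:**
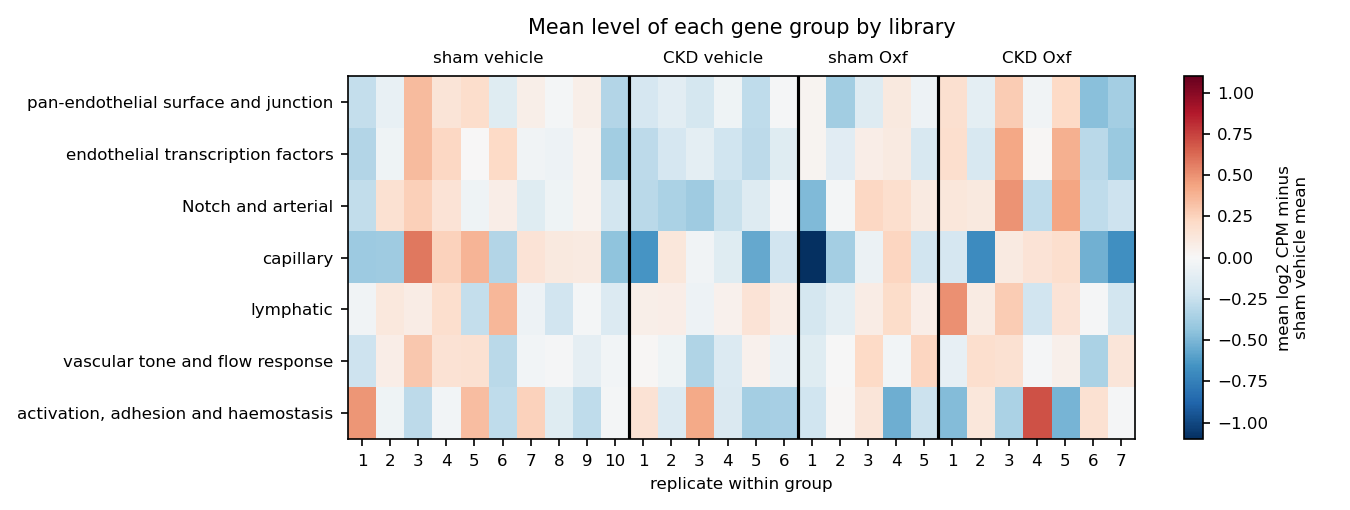
Mean over the genes of each role of log2 CPM minus the sham-vehicle mean (colour), by role (rows) and library (columns, replicates within the 4 groups). Roles do not move as 1 block: CKD-Oxf replicates 3 and 5 are high for transcription factor and Notch genes, CKD-Oxf replicate 4 is high for activation genes, and the low capillary mean of sham-Oxf replicate 1 includes Apln at 0, while Aplnr (30.0 CPM), Car4 (18.5) and Aqp1 (176) were above their sham-vehicle means there (18.99, 16.3 and 172.6).

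The 2 lymphatic genes went in opposite directions. Prox1, the master factor of lymphatic endothelium that heart muscle cells also express, had 34.6 to 63.6 CPM with a median of 42.1 in sham-vehicle and 51.5 to 61.7 with a median of 57.7 in CKD-vehicle. It had 33.9, 36.3, 44.1, 48.9 and 40.9 CPM in sham-Oxf and 41.1 to 72.5 with a median of 48.3 in CKD-Oxf. All 6 CKD-vehicle libraries lay above the sham-vehicle median, and 1 sham-vehicle library, replicate 6 at 63.6 CPM, lay above them all. Prox1 had a log2 fold change of 0.37 ± 0.12 for CKD under vehicle (edgeR adjusted p = 0.955), 0.30 ± 0.14 for CKD under Oxf (adjusted p = 0.593) and 0.33 ± 0.09 averaged over gavage (adjusted p = 0.238). For Oxf in CKD it was -0.19 ± 0.13, or 0.097 with the clock score covariate.

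Flt4, the receptor for the lymphatic growth factor VEGF-C, had 32.2 to 50.4 CPM with a median of 39.2 in sham-vehicle and 27.3 to 38.0 with a median of 33.0 in CKD-vehicle. It had 39.2, 41.2, 44.2, 47.5 and 47.1 CPM in sham-Oxf and 31.4 to 51.5 with a median of 41.1 in CKD-Oxf. Every CKD-vehicle library was below the sham-vehicle median, within an overlap of the ranges. Flt4 had a log2 fold change of -0.28 ± 0.12 for CKD under vehicle and 0.28 ± 0.13 for Oxf in CKD (edgeR adjusted p = 0.955 and 0.357). Of 5 further lymphatic genes (Lyve1, Pdpn, Ccl21a, Mmrn1 and Reln), 0 were above 0 for CKD under vehicle and 0 passed the threshold. The cardiomyocyte markers were also above 0 for CKD under vehicle (9 of 9), and their part in the Prox1 value was not tested.

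Among the genes of tone and flow, Nos3 had 50.9 to 80.1 CPM with a median of 64.7 in sham-vehicle and 43.3 to 82.7 with a median of 65.9 in CKD-vehicle. It had 66.2, 64.7, 77.5, 78.0 and 90.7 CPM in sham-Oxf and 56.8 to 125 with a median of 101 in CKD-Oxf. CKD-Oxf fell into 4 high libraries (replicates 1, 2, 3 and 5 at 101 to 125 CPM) and 3 libraries at 56.8 to 63.4, inside the vehicle range. Nos3 had a log2 fold change of -0.02 ± 0.17 for CKD under vehicle and 0.50 ± 0.18 for Oxf in CKD (edgeR adjusted p = 0.991 and 0.270). Averaged over surgery the Oxf value was 0.36 ± 0.13 (adjusted p = 0.100).

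Edn1 had 2.44 to 6.02 CPM (median 3.02) in sham-vehicle, 2.79 to 4.97 (3.48) in CKD-vehicle and 2.80 to 4.12 (3.58) in CKD-Oxf, and was 3.61, 2.81, 2.45, 2.41 and 3.90 in sham-Oxf. No group stood apart, and the log2 fold changes were 0.09 ± 0.19 for CKD under vehicle and -0.09 ± 0.20 for Oxf in CKD (-0.25 and 0.52 with the clock score covariate). Ednrb, an endothelin receptor also found on other cells of the heart, had 19.6 to 51.8 CPM (median 26.0) in sham-vehicle, 19.3 to 29.1 (23.6) in CKD-vehicle and 15.2 to 40.8 (17.6) in CKD-Oxf, and was 24.2, 19.7, 25.8, 21.4 and 23.8 in sham-Oxf. In CKD-Oxf, 6 libraries lay at 15.2 to 20.0 CPM and replicate 4 at 40.8. Ednrb had a log2 fold change for Oxf in CKD of -0.21 ± 0.22 (edgeR adjusted p = 0.696), and -0.46 without that library (adjusted p = 0.117).

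Klf2, a factor induced by laminar flow, had 45.1 to 132 CPM with a median of 93.1 in sham-vehicle and 54.7 to 108 with a median of 77.4 in CKD-vehicle. It had 75.4, 133, 153, 114 and 129.8 CPM in sham-Oxf and 67.0 to 132 with a median of 88.6 in CKD-Oxf. Sham-Oxf was the highest group, with replicate 1 as its low exception, and all ranges overlapped. The log2 fold change of Klf2 for Oxf was 0.41 ± 0.20 in sham mice and 0.21 ± 0.21 in CKD (edgeR adjusted p = 0.399 and 0.681), and the latter turned to -0.095 with the clock score covariate. Its relative Klf4 averaged 57.2 CPM over all libraries.

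Activation, adhesion and haemostasis genes gave no member with an unadjusted p under 0.05 in either main comparison. Icam1, a leukocyte adhesion molecule induced by inflammation, had 8.34 to 14.8 CPM (median 9.82) in sham-vehicle, 8.93 to 13.4 (11.98) in CKD-vehicle and 8.46 to 20.96 (10.9) in CKD-Oxf, and was 7.54, 11.3, 9.16, 7.92 and 10.8 in sham-Oxf. Its log2 fold changes were 0.13 ± 0.17 for CKD under vehicle and 0.03 ± 0.18 for Oxf in CKD (edgeR adjusted p = 0.955 and 0.957). The highest value of Icam1 was that of CKD-Oxf replicate 4, and the groups overlapped.

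Vcam1, an adhesion molecule of activated endothelium and of other stromal cells, had 13.3 to 36.3 CPM (median 20.99) in sham-vehicle, 19.2 to 30.2 (24.9) in CKD-vehicle and 10.4 to 35.5 (18.4) in CKD-Oxf, and was 19.1, 22.1, 26.4, 17.1 and 22.5 in sham-Oxf. CKD-Oxf replicates 1, 3 and 5, the libraries high for Egfl7, had the 3 lowest values of the group, 10.4, 13.4 and 12.6 CPM, and replicate 4 had the highest. The log2 fold changes of Vcam1 were 0.03 ± 0.21 for CKD under vehicle and -0.35 ± 0.23 for Oxf in CKD (edgeR adjusted p = 0.991 and 0.504).

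**Figure D5:**
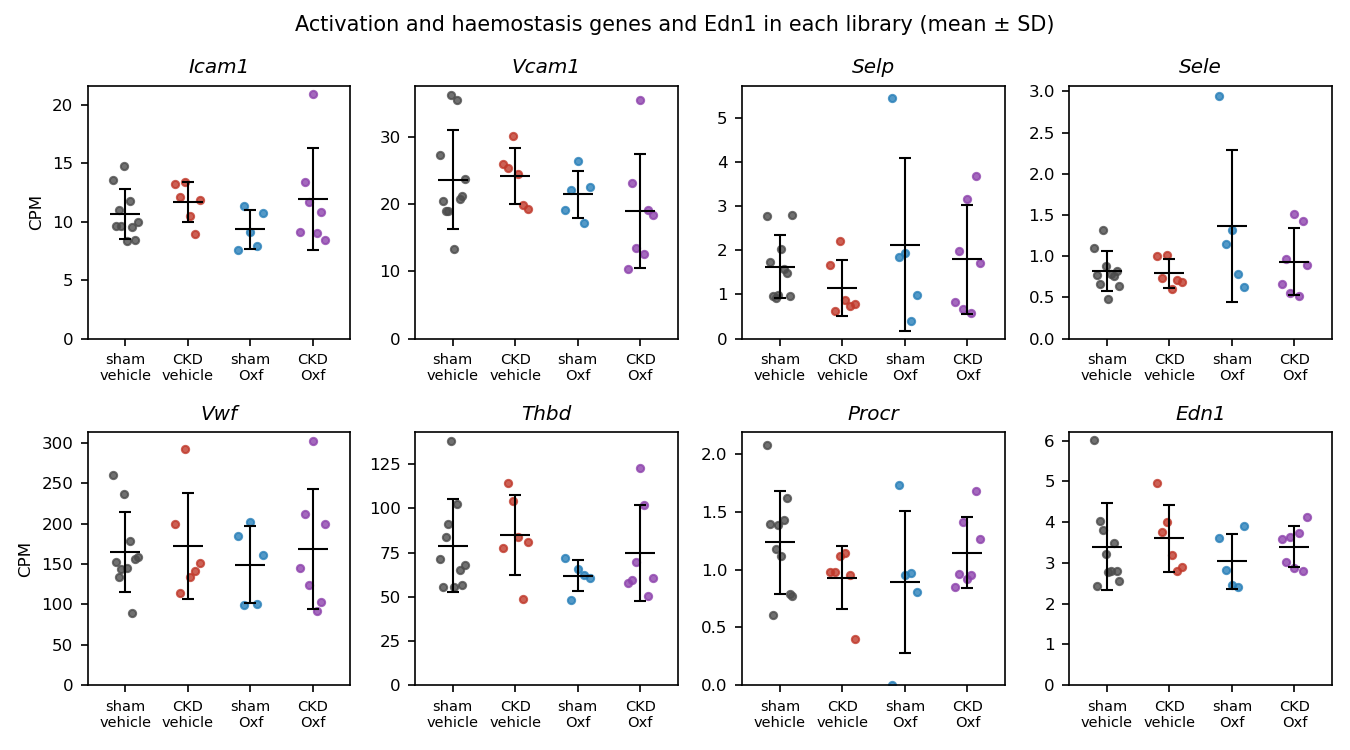
CPM in each library (points) for the 7 activation and haemostasis genes and Edn1, with the mean (long bar) and SD (error bar) of the 4 groups and every axis starting at 0. No group stands apart; CKD-Oxf replicate 4 is the highest CKD-Oxf library for Icam1 (20.96 CPM), Vcam1 (35.5) and Vwf (302), and sham-Oxf replicate 1 is the highest of all for Selp (5.45) and Sele (2.94).

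The selectins capture leukocytes and had the lowest levels per kb of all members. Selp had 0.928 to 2.79 CPM (median 1.53) in sham-vehicle, 0.626 to 2.21 (0.833) in CKD-vehicle and 0.572 to 3.67 (1.72) in CKD-Oxf, and was 5.45, 1.85, 1.94, 0.405 and 0.989 in sham-Oxf. Sele had 0.480 to 1.32 CPM (median 0.781) in sham-vehicle, 0.603 to 1.01 (0.723) in CKD-vehicle and 0.518 to 1.52 (0.899) in CKD-Oxf, and was 2.94, 1.15, 1.31, 0.784 and 0.625 in sham-Oxf. Both were highest in sham-Oxf replicate 1, the shallowest library and the one with the fewest genes. For Oxf in CKD the log2 fold changes were 0.65 ± 0.48 for Selp and 0.24 ± 0.33 for Sele, and for CKD under vehicle -0.50 ± 0.45 and -0.06 ± 0.30. For Oxf in sham mice Sele had 0.71 ± 0.31 (edgeR adjusted p = 0.344), which was 0.23 without sham-Oxf replicate 1 (adjusted p = 0.769) and 0.23 to 0.89 over the fits that left out 1 library each. Limma with sample weights gave 0.074.

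Vwf, the gene of von Willebrand factor, had 89.2 to 259.9 CPM (median 154) in sham-vehicle, 114 to 292 (146) in CKD-vehicle and 91.6 to 302 (146) in CKD-Oxf, and was 184, 99.7, 202, 100.4 and 161 in sham-Oxf. Its values spread over a similar range in each group, with log2 fold changes of 0.06 ± 0.25 for CKD under vehicle and -0.03 ± 0.26 for Oxf in CKD (-0.17 and 0.38 with the clock score covariate, and -0.015 and 0.069 with the 7SL covariate). Thbd, the anticoagulant receptor thrombomodulin, had 55.5 to 139 CPM (median 69.5) in sham-vehicle, 48.6 to 114 (82.4) in CKD-vehicle and 50.4 to 123 (60.8) in CKD-Oxf, and was 72.1, 48.4, 65.8, 62.3 and 60.7 in sham-Oxf. For Thbd the log2 fold changes were 0.11 ± 0.21 and -0.18 ± 0.22, within the spread of the mice, and they turned to -0.089 and 0.16 with the clock score covariate and to -0.032 and 0.037 with the 7SL covariate. Platelets also hold Selp and Vwf messages, and the platelet and megakaryocyte markers summed to 13.8 to 96.2 CPM in sham-vehicle and 7.31 to 57.2 in CKD-vehicle, and with Oxf to 14.8 to 45.3 (sham) and 24.3 to 111 (CKD). They had 4 of 4 tested genes above 0 for Oxf in CKD, and their part in the Selp and Vwf values was not tested.

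The other comparisons gave fewer low p-values or shared the same libraries. For Oxf in sham mice, 0 members and 0 of all genes (0%) passed in edgeR's test, and 3 members had an unadjusted p under 0.05 (Notch4 and Sele higher, Icam2 lower), where the shares over all genes were 6.60% higher and 5.98% lower. The members' median was -0.04, as over all genes (-0.04). For CKD against sham under Oxf, 0 members and 0 genes (0%) passed, and Prox1 and Efnb2 alone had an unadjusted p under 0.05, against 8.23% of all genes. DESeq2 and limma also called 0 members in these 2 comparisons. The test of the interaction called 0 members and 0 genes (0%), with Fli1 and Sox7 at an unadjusted p under 0.05 against 3.55% of all genes. So a different response of these genes to Oxf in CKD and in sham mice was not detectable with these numbers of mice.

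Averaged over surgery, Oxf against vehicle was the comparison with the most calls, 681 genes (2.81%), yet 0 of the 43 members, of which 11 had higher and 1 lower values at an unadjusted p under 0.05 (11.5% of all genes in each direction). Notch4 had 0.52 ± 0.16 (edgeR adjusted p = 0.0680), Dll4 0.35 ± 0.12 (adjusted p = 0.0772) and Sox17, Emcn and Nos3 the values given above. DESeq2 called 4 members (Sox17, Notch4 and Dll4 higher, Emcn lower) among 2083 genes (8.89%), and limma 7 among 5336 (22.0%), with Nos3, Klf2 and Flt4 added. Without CKD-Oxf replicate 4, edgeR called 6 among 3362 genes (13.9%): Notch4, Dll4, Nos3 and Sox17 as higher and Emcn and Ednrb as lower. It called Sox17 without sham-vehicle replicate 6, Sox17 and Notch4 without CKD-vehicle replicate 5, and Sox17 and Emcn without sham-Oxf replicate 1, among 1166 (4.82%), 1897 (7.83%) and 868 genes (3.50%). A filter of at least 10 counts in every library gave 4 members, Sox17, Emcn, Dll4 and Notch4, among 1422 genes (10.1%). Without sham-Oxf replicate 1 and CKD-Oxf replicate 4 together, 6 members were called among 4707 genes (19.1%). The clock genes moved strongly in this comparison. Of the genes added in the clock score 7 of 10 were called higher, and of those subtracted 4 of 4 were called lower. With the clock score as a covariate Sox17 stood at 0.10, Notch4 at 0.29, Dll4 at 0.34, Nos3 at 0.29 and Emcn at -0.11, with 0 members called. In CKD mice the clock scores of the gavage groups did not overlap, which limits this fit too.

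Averaged over gavage, CKD against sham called 0 members and 0 genes (0%) in edgeR's test. At an unadjusted p under 0.05 stood 4 members, Prox1 higher and Dll4, Efnb2 and Flt4 lower, against 5.17% of all genes higher and 5.45% lower. Dll4 had -0.34 ± 0.12 (adjusted p = 0.313) and Flt4 -0.19 ± 0.09 (adjusted p = 0.456). DESeq2 called 1 member, Efnb2, among 131 genes (0.540%), and limma 0.

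Genes of the same pathways outside the 43 were read from 4 lists. Of 20 ligands, co-receptors and targets of VEGF, angiopoietin and Notch signalling, 0 passed in any of the 7 comparisons. For CKD under vehicle 3 of the 20 were above 0 (median -0.14), and 4 had an unadjusted p under 0.05, all lower. For Oxf in CKD 11 of the 20 were above 0 (median 0.06), 4 of them at an unadjusted p under 0.05. Of 17 other endothelial genes, 2 were above 0 for CKD under vehicle (median -0.15) and 7 for Oxf in CKD (median -0.07), and 0 passed in any comparison. Of 18 tested genes of the flow and inflammatory response, Plat, the gene of tissue plasminogen activator, fell by 0.57 ± 0.15 on the log2 scale with Oxf averaged over surgery (edgeR adjusted p = 0.0386), and no other passed in any comparison. The median of the 17 other endothelial genes thus lay below 0 for Oxf in CKD, where that of the 43 members lay above it.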

How the data were processed

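Gene counts were deposited by the authors as 1 table of whole numbers for 28 libraries. The submitters' processing notes name FastQC 0.11.7, MultiQC 1.9, STAR 2.6.1d, Subread, featureCounts 1.6.3 and the build mm10, without their roles. The annotation, the strand setting and the treatment of multi-mapped reads are not given in the sources used here, so counts of overlapping genes are uncertain. Of the members, 16 overlap another gene in GENCODE M21, which also gave the exon lengths.

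Counts were tested in R 4.3.3 with edgeR 4.0.16: TMM factors, filterByExpr by group with a minimum count of 10, and a robust quasi-likelihood F test in 1 fit of 4 group means over all 28 libraries, with 7 contrasts. P-values were adjusted by Benjamini-Hochberg over the 24273 genes tested (threshold 0.05). An SE is the size of the log2 fold change over the root of its F value. CPM are counts scaled by library size and TMM factor, except that sums over marker lists are scaled by library size alone. Role levels are means of log2 CPM with a prior count of 2. The scripts were tested on simulated data. Members, lists and tests were chosen with earlier results of these data known. Members with values in every library are anchors of each role and the member of each role with the smallest p in the 2 main comparisons. Notch4 and Emcn, which passed the threshold only in alternative fits, are given in the same way outside that rule. The alternatives were DESeq2 1.42.0, limma 3.58.1 (voom with sample weights), 2 other scalings, 2 other filters, a fit of the compared groups, covariates for the clock score and the 7SL share, each library left out and, added after the data were seen, sham-Oxf replicate 1 and CKD-Oxf replicate 4 left out together.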

Additional observations from a re-analysis of the deposited data

Results flagged for a closer look

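In 9 of 172 combinations of member and group, the highest or lowest library lay far from the rest, where chance gives about 1 in 20 (8.6). The measure is the gap to the nearest library as a share of the range of the group. CKD-Oxf replicate 4 was high for Ednrb (40.8 against at most 20.0 CPM in the other 6, a share of 0.813) and Icam1 (20.96 against 13.4, 0.604). Sham-Oxf replicate 1 was high for Notch4 (185 against 120.0, 0.811) and low for Sox17 (13.8 against 18.6, 0.714). Prox1 was high in sham-vehicle replicate 6 (63.6 against 49.95, 0.471) and in CKD-Oxf replicate 1 (72.5 against 50.7, 0.695). Kdr was low in CKD-vehicle replicate 5 (147 against 209.8, 0.64), Procr in CKD-vehicle replicate 6 (0.396 against 0.955, 0.746), and Edn1 was high in sham-vehicle replicate 1 (6.02 against 4.03, 0.554).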

How the results depend on the processing

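Of 1845 values of 70 named fold changes over the alternatives, 1739 kept their direction and side of the threshold, 43 newly passed it and 63 changed sign. No median of the members moved by over 1 SD, where the SD is that of the members' median among libraries of the same group and not the error of a comparison. Within that limit some medians changed sign. For Oxf in sham mice the median was -0.04 in the main fit, with 17 of 43 members above 0. It became 0.05 with the clock score covariate (26 above 0) and 0.09 with the 7SL covariate (31 above 0). For CKD under Oxf it went from 0.05 to -0.05 with the 7SL covariate. No paired analysis was possible because every mouse number occurs once, so the groups share no replicate number in the labels. The main counts of genes called were 2 for CKD under vehicle, 8 for Oxf in CKD, 0 for Oxf in sham mice, 0 for CKD under Oxf, 681 for Oxf averaged over surgery, 0 for CKD averaged over gavage and 0 for the interaction. DESeq2 gave 33 for CKD under vehicle, 191 for Oxf in CKD, 169 for Oxf in sham mice, 134 for CKD under Oxf, 2083 for Oxf averaged over surgery, 131 for CKD averaged over gavage and 1 for the interaction. Limma gave 93 for CKD under vehicle, 3639 for Oxf in CKD, 34 for Oxf in sham mice, 5336 for Oxf averaged over surgery and 126 for CKD averaged over gavage. DESeq2 size factors gave 5 for Oxf in CKD. Upper quartile scaling gave 1 for CKD under vehicle and 5 for Oxf in CKD. No filter gave 1 for CKD under vehicle, 5 for Oxf in CKD and 161 for Oxf averaged over surgery. At least 10 counts in every library gave 14 for Oxf in CKD and 1422 for Oxf averaged over surgery. A fit of the compared groups only gave 1 for CKD under vehicle. The clock score covariate gave 0 for CKD under vehicle, 0 for Oxf in CKD, 2 for Oxf in sham mice, 0 for Oxf averaged over surgery and 2 for CKD averaged over gavage. The 7SL covariate gave 22 for CKD under vehicle, 141 for Oxf in sham mice, 132 for Oxf averaged over surgery and 45 for CKD averaged over gavage. Sham-Oxf 1 and CKD-Oxf 4 left out gave 2189 for Oxf in CKD and 4707 for Oxf averaged over surgery. The count of members called, 0 in each main comparison, became with DESeq2 4 for Oxf averaged over surgery and 1 for CKD averaged over gavage, with limma 6 for Oxf in CKD and 7 for Oxf averaged over surgery, with at least 10 counts in every library 4 for Oxf averaged over surgery, with the 7SL covariate 1 for CKD averaged over gavage. With sham-Oxf 1 and CKD-Oxf 4 left out it was 5 for Oxf in CKD (8.86% of all genes called) and 6 for Oxf averaged over surgery (19.1% of all genes called). Limma, for Oxf in CKD, turned the sign of Icam1 (-0.083). Upper quartile scaling, for CKD under vehicle, turned the sign of Aplnr (-0.015). At least 10 counts in every library, for CKD under vehicle, turned the sign of Aplnr (-0.0054). The clock score covariate, for CKD under vehicle, turned the sign of Aplnr (-0.43), Rgcc (0.027), Car4 (0.021), Nos3 (0.021), Edn1 (-0.25), Klf2 (0.019), Vwf (-0.17) and Thbd (-0.089). The clock score covariate, for Oxf in CKD, turned the sign of Cdh5 (0.30), Kdr (0.44), Aplnr (0.39), Rgcc (-0.36), Prox1 (0.097), Edn1 (0.52), Klf2 (-0.095), Vwf (0.38) and Thbd (0.16). The clock scores of CKD-vehicle and CKD-Oxf did not overlap, so these values are extrapolations. The 7SL covariate, for CKD under vehicle, turned the sign of Aplnr (-0.13), Vcam1 (-0.025), Vwf (-0.015) and Thbd (-0.032). The 7SL covariate, for Oxf in CKD, turned the sign of Cdh5 (0.094), Kdr (0.052), Vwf (0.069) and Thbd (0.037). Sham-Oxf 1 and CKD-Oxf 4 left out, for Oxf in CKD, turned the sign of Pecam1 (-0.023) and Icam1 (-0.16). Leaving out each library in turn gave gene counts of 0 to 1 for CKD under vehicle, 0 to 20 for Oxf in sham mice (highest without sham-Oxf 2), 109 to 3362 for Oxf averaged over surgery (lowest without CKD-vehicle 2, highest without CKD-Oxf 4), 0 to 1 for CKD averaged over gavage (highest without sham-vehicle 5) and 0 to 927 for Oxf in CKD (highest without CKD-Oxf 4), and 0 to 6 members for Oxf averaged over surgery (highest without CKD-Oxf 4) and 0 to 3 members for Oxf in CKD (highest without CKD-Oxf 4). In those fits for CKD under vehicle the sign turned for Aplnr (-0.14 to 0.16), Nos3 (-0.11 to 0.031), Edn1 (-0.028 to 0.22), Vcam1 (-0.076 to 0.11), Sele (-0.17 to 0.043), Vwf (-0.19 to 0.15) and Thbd (-0.018 to 0.23). In those fits for Oxf in CKD the sign turned for Pecam1 (-0.025 to 0.15), Cdh5 (-0.15 to 0.013), Efnb2 (0 to 0.11), Edn1 (-0.15 to 0.028), Icam1 (-0.16 to 0.10) and Vwf (-0.24 to 0.19). The causes of these changes were not tested. Group sizes of 5 to 10 mice and the counts of Selp, Sele and Procr limit the precision.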
